A study of Homo sapiens with 36 samples.

Results

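The 10 genes described here encode the dimer partners of RELA and the proteins that hold NF-kB dimers in check. They are the 4 other Rel family genes NFKB1, NFKB2, REL and RELB, the 3 classical IkB inhibitors NFKBIA, NFKBIB and NFKBIE, and the 3 atypical IkB genes NFKBID, NFKBIZ and BCL3. They were chosen by name, with earlier results of these data known, from the 74628 Ensembl gene identifiers of the count table. All 10 were found and passed the count filter in every comparison of the main fit. BCL3 did so with only 0 to 14 counts per RNA sample. RELA itself is the targeted gene and is given only as a reference.

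RNA was measured in Jurkat-dCas9-VP64 cells, a stable CRISPR activation (CRISPRa) line made from Jurkat, a human T lymphocyte leukaemia line. All groups, controls included, express dCas9-VP64, a Cas9 that cannot cut DNA fused to a transcriptional activator, and are labelled mCherry+. Cells received a pXPR-based lentiviral vector with a guide RNA against RELA (sgRELA) or with a non-targeting guide (sgControl), and both were kept in puromycin for 3 days. RNA was taken on day 5, 6 or 7 after transduction, which gave 6 groups of 3 biological replicates, and RamDA-seq, a total RNA method with random-primed amplification, was used to make 2 libraries from each of the 18 RNA samples. The labels speak of 1 guide against RELA and do not say whether the line is a clone, so an effect of this guide and an effect of RELA cannot be told apart. These are whole cultures, in which more cells with a transcript and more transcript per cell cannot be told apart.

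NF-kB proteins act as dimers built from RELA, REL, RELB and the DNA-binding subunits p50 and p52, which are cut from the products of NFKB1 and NFKB2. Resting cells keep most dimers in the cytoplasm bound to an IkB protein, and IKK kinases release them by marking the inhibitor for ubiquitination and destruction. NFKBIA, RELB and several other genes of the system are themselves well known NF-kB targets, and in T cells the pathway is switched on through the antigen receptor, costimulation and TNF family receptors.

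Promoter sequence shows one thing that many of these genes share outside the measurements. RefSeq promoters on GRCh38.p14 were at hand for 8 of the 10 genes, with 15 starts, and covered the 250 bases before each start. RELB and NFKBIE were not in that table. Searched on both strands, the kappaB consensus, the general binding motif of NF-kB dimers, matched at least 1 promoter of 7 of the 8 genes, with no match in BCL3, and 10 of the 15 starts. It matched 9.95% of the 34943 promoters in the table and 16.1% of those with a GC content of at least 65%. The narrower form lies within the consensus. It matched 6 of the 8 genes, 7 of the 15 starts and 0.919% of all promoters. Symmetrical matches were read on both strands. The same 10 bases, GGGAATTTCC or their reverse complement GGAAATTCCC, occurred in 5 of the 8 genes and in 50 promoters of the table (0.143%). That form was picked because it was the most frequent among these genes, so its share is a description. The count of 5 is per gene, whereas the share is per promoter. The 30 bases around it are shown to make the identity visible, each 5′ to 3′ on the gene's own strand, with the shared bases in capitals.
NFKB1: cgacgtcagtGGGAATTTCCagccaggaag
REL: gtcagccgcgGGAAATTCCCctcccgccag
NFKBIA: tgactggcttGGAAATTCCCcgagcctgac
NFKBIB: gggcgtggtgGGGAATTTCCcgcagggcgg
NFKBIZ: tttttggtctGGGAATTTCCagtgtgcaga
These windows lie at chr4:102501300-102501329 (plus strand), chr2:60881518-60881547 (plus), chr14:35404811-35404840 (minus), chr19:38899931-38899960 (plus) and chr3:101827757-101827786 (plus). The match began 49 bases before the RefSeq start in NFKB1, 46 in REL, 81 in NFKBIA, 28 in NFKBIB and 223 in NFKBIZ. In GENCODE v29 the NFKBIB window lies wholly within the gene, and the REL window reaches into the gene with its match inside. The window of NFKB1 ends at the first base of the gene, and those of NFKBIA and NFKBIZ lie before the gene. A match is a string of letters and not a measured binding site.

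The promoter of NFKBIA is printed in full, since it is the only one of these 5 genes whose RNA was called different between the guides in the results that follow. It covers chr14:35404750-35404999 on the minus strand and ends at the base before the annotated gene start.
NFKBIA promoter: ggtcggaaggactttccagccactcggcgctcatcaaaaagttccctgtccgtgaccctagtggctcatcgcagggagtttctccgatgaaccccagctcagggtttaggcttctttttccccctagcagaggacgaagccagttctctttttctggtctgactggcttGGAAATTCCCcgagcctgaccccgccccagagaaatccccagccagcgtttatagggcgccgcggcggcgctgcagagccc
The other 4 genes carry the same 10 bases, and their RNA differed by log2 fold changes of -0.65 to 0.35 between the guides, none of which passed the test.

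Counts of the 2 libraries of each RNA sample were added, and the level of a gene is its CPM, that is, its count relative to the library total after TMM scaling. Library totals were 7586205 to 16124473 counts and RNA sample totals 18769530 to 29503934. The 2 libraries with the fewest detected genes, 25398 and 26526 against up to 29057, were both sgControl, library 1 of day 5 replicate 2 and library 1 of day 6 replicate 1. Differences are log2 fold changes with their standard error (SE) from edgeR's quasi-likelihood test, and a gene was called at a Benjamini-Hochberg adjusted p under 0.05 over all genes tested. Whether samples of different groups overlapped is a description, since the share of all genes without overlap was not counted. The T cell receptor chains CD3D, CD3E and CD3G, had 358.4, 426.2 and 404.3 CPM in sgControl, and the summed level of 10 T lymphocyte genes was 2498 to 3621 CPM in sgControl and 2694 to 3765 in sgRELA. Of the B cell genes, CD79A was at 19.8 ± 0.317 CPM with the control guide and 56.0 ± 0.829 with the RELA guide (SD, n = 3 each, days added), while MS4A1 and CD79B, which mark B cells equally, averaged at most 0.203 CPM each in both guides. The 4 myeloid genes together stayed at or under 3.86 CPM, and the erythroid genes HBB and HBA1 were at 0 in all samples. Of the 3 fibroblast genes, COL1A2 was at 0 throughout and COL1A1 made up nearly all of a sum of 1.95 to 10.3 CPM.

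With the RELA guide, 2 of the 10 genes rose across days, RELB 4.35-fold and NFKBIA 2.27-fold. The remaining 8 did not pass the test. Here the 3 days of each replicate number were pooled within a guide, so that 3 sums stood against 3. Of 28888 genes tested, 0.363% were called, against 2 of the 10 here. The 10 were chosen with earlier results of these data known, so this contrast is a description. The median log2 fold change was 0.26 over the 10 genes and -0.00 over all genes. Above 0 were 8 of the 10 values, among them BCL3 with few counts, beside 14319 of the 28888 genes. By role, 1 of 4 partner subunits, 1 of 3 classical IkB genes and 0 of 3 atypical IkB genes were called, the last also 0 at an unadjusted p under 0.05 and by DESeq2. At an unadjusted p under 0.05 the count was 4, with NFKB1 and NFKB2 added, beside 6.74% of all genes. RELA, measured in the same way, had a log2 fold change of 2.95 ± 0.07 (SE), with 24.1 to 29.4 CPM in sgControl and 195.6 to 221.1 in sgRELA.

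**Figure D1:**
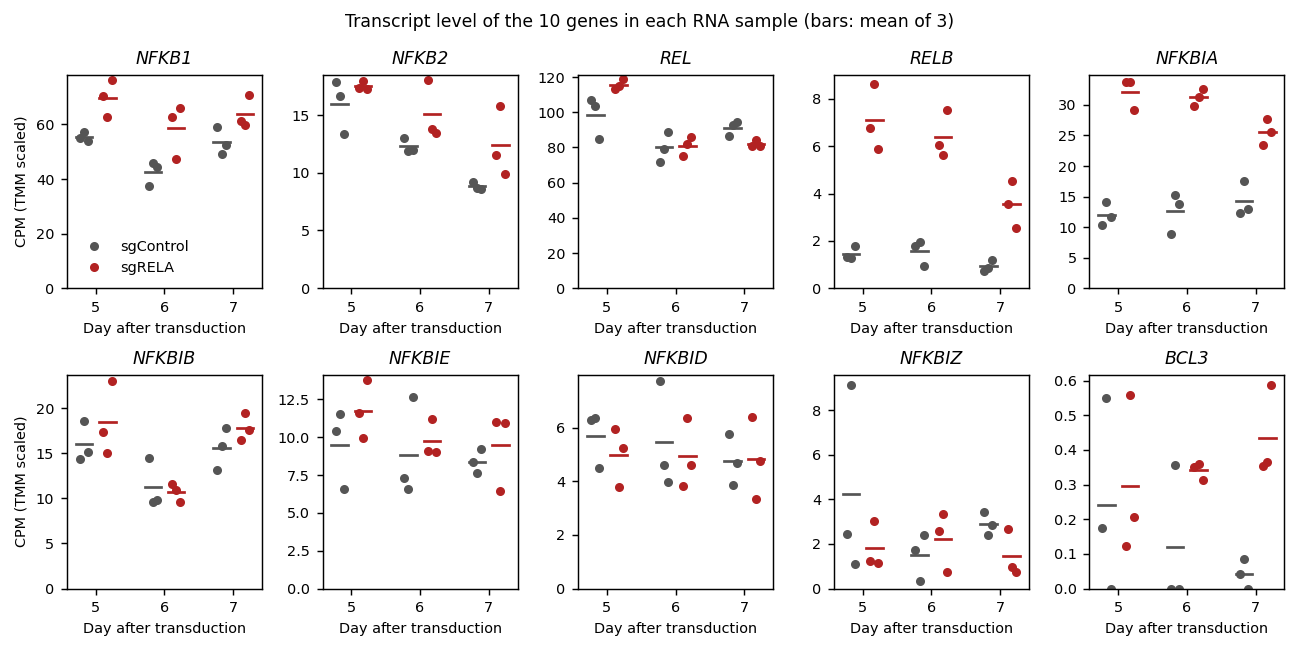
Level of each of the 10 genes (CPM, TMM scaled, linear axis from 0) in the 18 RNA samples by day after transduction, grey for sgControl and red for sgRELA; points are biological replicates and bars their mean. RELB and NFKBIA are the genes whose sgRELA samples lie above all sgControl samples of the same day on each of the 3 days by a wide margin, while REL, NFKBIB, NFKBIE and NFKBID lie close together.

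RELB encodes the subunit that pairs with p52 in the non-canonical pathway. RELB (ENSG00000104856) is a protein-coding gene on chromosome 19 from 45001430 to 45038198 on the plus strand in GENCODE v29 on GRCh38. It was scarce in sgControl, where its 9 RNA samples held 18 to 44 counts each, and the sgRELA samples held 61 to 216. On day 5 it had 1.32, 1.28 and 1.77 CPM in sgControl replicates 1 to 3 and 6.77, 8.64 and 5.88 in sgRELA. On day 6 the values were 1.77, 1.97 and 0.931 in sgControl and 6.05, 5.64 and 7.53 in sgRELA. On day 7 they were 0.745, 0.856 and 1.184 in sgControl and 3.55, 4.55 and 2.56 in sgRELA. The guides did not overlap on any day, and the lowest sgRELA sample of all, on day 7, was above the highest sgControl sample, on day 6. The log2 fold change was 2.12 ± 0.22 (SE, adjusted p = 7.48e-06) across days.

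RELB was also the partner subunit with the widest gap between libraries of one RNA. Library 1 gave the higher level in 8 of 9 RNA samples of each guide, with means of 7.30 and 3.93 CPM for libraries 1 and 2 in sgRELA and 1.65 and 0.955 in sgControl. The median difference between the 2 libraries of an RNA sample, relative to their mean, was 67.2% in sgRELA and 110.8% in sgControl, against 7.48% and 14.7% for the abundant REL. Used alone, each library set still called RELB across days, and over the 14 alternatives its log2 fold change stayed between 1.98 and 2.18.

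NFKB1, the source of p105 and p50, was the gene closest to the threshold without passing it. It (ENSG00000109320) lies on chromosome 4 from 102501329 to 102617302 on the plus strand. Its 3 sums were 51.1, 50.5 and 50.2 CPM in sgControl and 64.6, 56.9 and 71.8 in sgRELA, so the guides did not overlap. The log2 fold change was 0.35 ± 0.08 (SE) with an adjusted p of 0.0506. DESeq2, which called 0.813% of all genes across days, called NFKB1 with an adjusted p of 0.00369, and it was also called without sgRELA replicate 2, at a log2 fold change of 0.43 and an adjusted p of 0.0123. Over all 14 alternatives the adjusted p ran from 0.000356 to 0.539, and 5 of them called the gene. Every sgRELA sample exceeded every sgControl sample on day 5 (62.8 to 76.3 against 54.0 to 57.3 CPM), on day 6 (47.2 to 66.2 against 37.5 to 45.9) and on day 7 (59.9 to 70.9 against 49.0 to 59.0), and none of the single days passed the test.

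NFKB2, which encodes p100 and p52, had 13.3, 12.3 and 11.2 CPM in the sgControl sums and 15.5, 15.9 and 13.8 in sgRELA. The groups did not overlap, and the difference of 0.30 ± 0.12 on the log2 scale (SE, adjusted p = 0.638) did not pass the test. REL, which encodes c-Rel, the subunit most closely tied to lymphocytes, was among the most abundant of these genes. Its sums were 88.9, 91.4 and 89.3 CPM in sgControl and 89.8, 94.0 and 97.6 in sgRELA. They overlapped, and the log2 fold change was 0.06 ± 0.06 (SE, adjusted p = 0.921). In GENCODE v29, 43.3% of the exon bases of REL are shared with AC010733.2 on the same strand, so how its reads were assigned is uncertain.

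NFKBIA encodes IkB alpha, the inhibitor that NF-kB restores after each activation. The protein-coding gene (ENSG00000100906) spans bases 35401511 to 35404749 of chromosome 14 on the minus strand, and like RELB it shares no exon base with another gene in GENCODE v29. On day 5 it had 10.3, 14.1 and 11.7 CPM in sgControl replicates 1 to 3 and 33.7, 33.7 and 29.1 in sgRELA. On day 6 the values were 8.83, 15.3 and 13.8 in sgControl and 29.8, 31.3 and 32.6 in sgRELA, and on day 7 they were 12.3, 17.5 and 12.99 in sgControl and 23.5, 27.6 and 25.5 in sgRELA. All 9 sgRELA samples lay above all 9 sgControl samples. Across days the log2 fold change was 1.19 ± 0.12 (SE, adjusted p = 4.5e-06). The alternatives gave 1.01 to 1.34 and all 14 called the gene. Single libraries separated too, with 8.02 to 21.5 CPM over 18 sgControl libraries and 20.7 to 38.4 over 18 sgRELA libraries, the ranges meeting only between 20.7 and 21.5.

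The other classical inhibitors did not pass the test. NFKBIB, which encodes IkB beta, had 13.9, 14.6 and 14.3 CPM in the sgControl sums and 15.2, 15.3 and 17.6 in sgRELA. Its groups did not overlap, and the log2 fold change was 0.17 ± 0.12 (SE, adjusted p = 0.876). NFKBIE, which encodes IkB epsilon, had 8.72, 8.50 and 9.40 CPM against 10.6, 9.10 and 11.6, which overlapped, and the log2 fold change was 0.23 ± 0.14 (SE, adjusted p = 0.842).

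None of the atypical IkB genes, whose nuclear products bind p50 or p52 dimers on DNA, was called. NFKBID, which encodes IkB-NS, had 6.52, 4.89 and 4.39 CPM in the sgControl sums and 5.43, 4.43 and 4.90 in sgRELA, and the groups overlapped at a log2 difference of -0.10 ± 0.20 (SE, adjusted p = 0.977). NFKBIZ, which encodes IkB zeta, had 2.58, 3.89 and 2.13 CPM against 2.15, 2.43 and 0.902. Its log2 fold change was -0.65 ± 0.33 (SE, adjusted p = 0.761), and the groups overlapped. Its highest RNA sample was sgControl day 5 replicate 2 at 9.14 CPM, where the other 8 sgControl samples had 0.357 to 3.44. That sample is the one with the fewest detected genes in library 1. Both its libraries were high, with 137 and 63 counts, and without sgControl replicate 2 the log2 fold change was -0.37.

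BCL3, which encodes a cofactor of p50 and p52 dimers, was barely detected in sgControl. Its RNA samples held 4, 12 and 0 counts on day 5, 0, 8 and 0 on day 6 and 1, 2 and 0 on day 7 in sgControl. In sgRELA they held 3, 14 and 6, then 8, 8 and 6, then 9, 9 and 14. Over all libraries this was 27 counts in sgControl, with 13 of 18 libraries at 0, and 77 in sgRELA, with 4 of 18 at 0. The log2 difference of 1.41 ± 0.96 (SE, adjusted p = 0.869) did not pass the test, and it was 3.22 without sgControl replicate 2, which held 22 of the 27 counts (adjusted p = 0.602). At this depth a difference in BCL3 could not be resolved. BCL3 and RELB lie 241.4 kb apart on chromosome 19 in GENCODE v29.

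**Figure D2:**
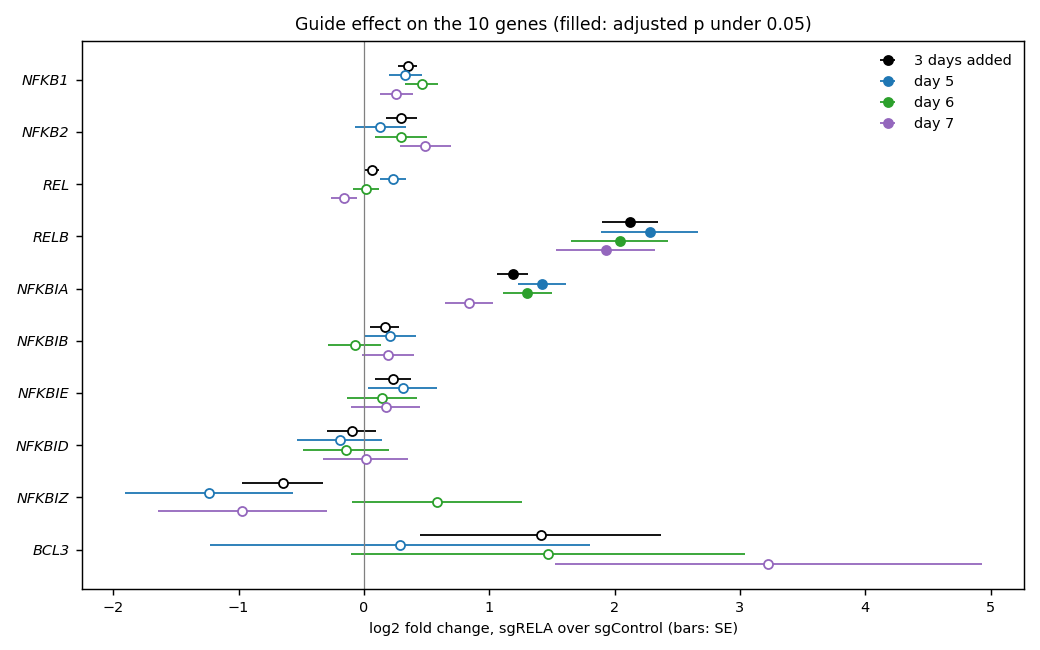
Log2 fold change of sgRELA over sgControl for each of the 10 genes, with the 3 days added and on each day, with SE bars; filled points passed an adjusted p under 0.05. RELB is filled in all 4 comparisons and NFKBIA in all but day 7, and the bars of NFKBIZ and BCL3 are the widest.

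Taken day by day, RELB and NFKBIA were called on days 5 and 6, and on day 7 only RELB. On day 5, 2 of the 10 genes were called against 0.138% of 27553 genes tested, on day 6 again 2 against 0.214%, and on day 7 it was 1 against 0.0907%. The median log2 fold change of the 10 genes was 0.26, 0.38 and 0.23 on the 3 days. For RELB the difference was 2.28 ± 0.39, 2.04 ± 0.39 and 1.93 ± 0.39 on the log2 scale (SE), with adjusted p of 0.00274, 0.00788 and 0.0405. The single-day calls of RELB rested on few counts. Neither library set alone called it on any day. On day 5 the call was lost without sgRELA replicate 2 (2.12, adjusted p = 0.0695). On day 6 it was lost without sgControl replicate 3 (1.78, adjusted p = 0.134) or without sgRELA replicate 1, 2 or 3 (2.08, 2.13 and 1.91, adjusted p = 0.0821, 0.0521 and 0.0933). On day 7 it was lost without any 1 of the 6 replicates, at log2 fold changes of 1.71 to 2.14 and adjusted p of 0.0712 to 0.491. Over all alternatives on single days the log2 fold change of RELB ran from 1.37 to 2.78.

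For NFKBIA the log2 fold change was 1.42 ± 0.19 on day 5, 1.30 ± 0.19 on day 6 and 0.84 ± 0.19 on day 7 (SE), with adjusted p of 8.27e-05, 0.000281 and 0.115. The day 6 call was lost with library set 1 alone (1.33, adjusted p = 0.103). On day 7 the samples of NFKBIA still did not overlap between guides. It was called there by DESeq2 (0.84, adjusted p = 0.00843), without sgControl replicate 2, its highest control (1.01, adjusted p = 0.0335), and with no filter on low counts (0.84, adjusted p = 0.00664). These were the only 3 of 13 alternatives that called it on day 7. Over all 13 the log2 fold change was 0.62 to 1.08, and the adjusted p reached 0.797. With no filter RELB lost its call on day 7 (1.92, adjusted p = 0.0708), so the 1 gene called there was NFKBIA in place of RELB. Whether the guide effect differed between days was tested directly with an interaction of guide and day. None of the 10 genes passed, against 0.00363% of all genes, 1 gene of 27553. NFKBIA had an unadjusted p of 0.0930 and RELB of 0.803, so a smaller effect on day 7 was not shown for either. DESeq2 also called 0 of the 9 to which it gave an adjusted p, against 0.0894% of all genes. The only unadjusted p under 0.05, beside 4.69% of all genes, was that of REL at 0.0426 (adjusted p = 1), whose sgRELA samples lay above sgControl on day 5, with 113.0, 114.9 and 119.1 against 106.9, 103.7 and 84.9 CPM. On day 7 they lay below, with 80.7, 84.1 and 80.8 against 86.5, 92.5 and 94.5.

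Per exon length, NFKBIA went from rank 4 to rank 1 among the 10 genes. Levels of different genes are compared here as CPM per kb of exon in GENCODE v29, with the 3 days added. In sgControl the order was NFKB1 (8.08 ± 0.0753 CPM per kb), REL (6.82 ± 0.104), NFKBIB (6.15 ± 0.140), NFKBIA (5.47 ± 1.07), NFKBIE (3.44 ± 0.181), NFKB2 (2.73 ± 0.233), NFKBID (1.65 ± 0.349), NFKBIZ (0.486 ± 0.155), RELB (0.427 ± 0.0182) and BCL3 (0.0409 ± 0.0524; SD, n = 3). The sums of NFKBIB and NFKBIA overlapped, as did those of NFKBIZ and RELB, so their order is not fixed. REL lies below NFKB1 only per length, with 89.9 CPM in sgControl against 50.6. With 43.3% of its exon bases shared with another gene, the place of REL and the Rel family shares that follow are uncertain. In sgRELA NFKBIA led with 12.4 ± 0.480 CPM per kb, ahead of NFKB1 at 10.3 ± 1.20. REL (7.12 ± 0.295) and NFKBIB (6.90 ± 0.592) overlapped, as did NFKBIE (4.04 ± 0.482) and NFKB2 (3.36 ± 0.250). RELB followed at 1.86 ± 0.190, above NFKBID at 1.54 ± 0.156, NFKBIZ at 0.310 ± 0.138 and BCL3 at 0.109 ± 0.0241.

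**Figure D3:**
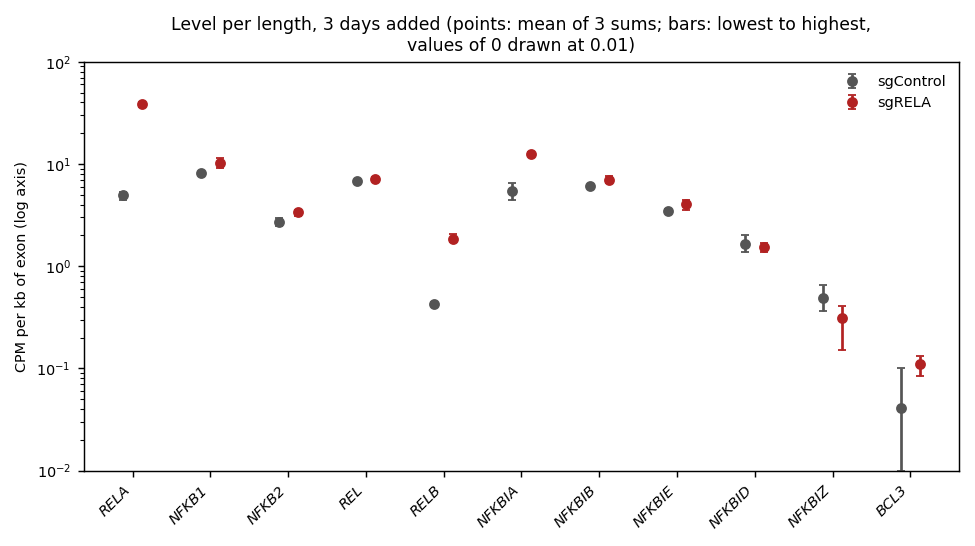
CPM per kb of exon on a log axis for RELA and the 10 genes with the 3 days added, grey for sgControl and red for sgRELA; points are the mean of 3 sums and bars run from the lowest to the highest. NFKBIA moves from 5.47 to 12.4 CPM per kb and RELB from 0.427 to 1.86, while RELA moves from 4.97 to 38.3.

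These levels give the make-up of the Rel family RNA. RELA took 21.5 ± 1.47% of the summed level of the 5 Rel family genes in sgControl and 62.9 ± 1.33% in sgRELA (SD, n = 3). In sgRELA the share was 67.2 ± 1.98% on day 5, 63.7 ± 2.25% on day 6 and 53.3 ± 1.43% on day 7, and in sgControl it was 22.9 ± 2.18%, 21.4 ± 5.29% and 20.3 ± 1.44%. NFKB1, the largest share in sgControl at 35.1 ± 0.990%, took 16.9 ± 1.36% in sgRELA, and REL took 29.6 ± 1.07% and 11.7 ± 0.779%. RELB was the only partner whose mean share was larger in sgRELA, with 1.86 ± 0.106% and 3.06 ± 0.467%. The 4 partners together had 18.1 ± 0.306 CPM per kb in sgControl and 22.6 ± 0.944 in sgRELA. With the days added, the mean levels in sgControl and sgRELA were 8.08 and 10.3 CPM per kb for NFKB1. They were 2.73 and 3.36 for NFKB2 and 6.82 and 7.12 for REL. The lower shares of these genes thus stood beside a larger family total and means that were not lower. On day 7 alone, the REL samples of sgRELA lay below those of sgControl.

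Summed by role, the inhibitors differed less between the guides than the subunits with RELA included. The 3 classical IkB genes together had 15.05 ± 1.17 CPM per kb in sgControl and 23.4 ± 0.746 in sgRELA, and the 3 atypical genes 2.17 ± 0.395 and 1.96 ± 0.177. The 5 Rel family genes together had 23.0 ± 0.812 and 61.0 ± 2.90. The ratio of all 6 IkB genes to the 5 Rel family genes was 0.748 ± 0.0522 in sgControl and 0.416 ± 0.0184 in sgRELA, with RELA, the targeted gene, in the denominator. It was 0.351 ± 0.0131, 0.411 ± 0.0545 and 0.550 ± 0.0277 on days 5, 6 and 7 of sgRELA, and 0.685 ± 0.0822, 0.760 ± 0.0414 and 0.808 ± 0.0844 in sgControl. The guides did not overlap on any day. Against the 4 partners without RELA the ratio was 0.954 ± 0.0601 in sgControl and 1.12 ± 0.0235 in sgRELA, with the days added. By day, the guides overlapped in this ratio on days 5 and 6 and did not overlap on day 7. NFKBIA made up 36.1 ± 4.31% of the classical IkB level in sgControl and 53.3 ± 3.05% in sgRELA. These ratios of RNA levels were not tested and say nothing of protein.

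**Figure D4:**
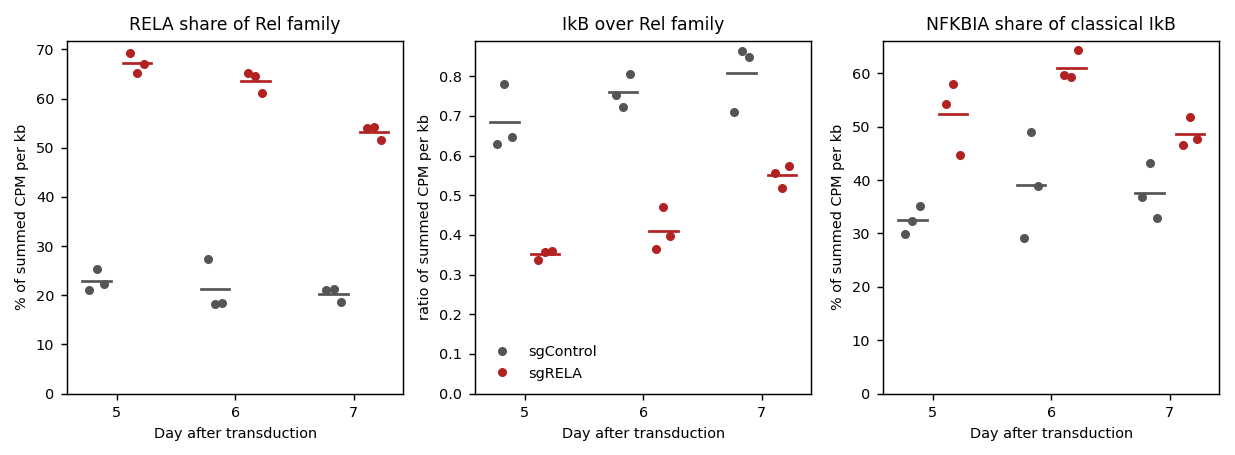
RELA's percentage of the summed Rel family level, the ratio of the 6 IkB genes to the 5 Rel family genes, and NFKBIA's percentage of the classical IkB level, each from CPM per kb in the 18 RNA samples by day, grey for sgControl and red for sgRELA with bars at the mean of 3. The sgRELA ratio of IkB to Rel family lies at 0.351 on day 5 and 0.550 on day 7, below all sgControl samples of the same day.

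Days were compared within each guide, where the labels give no batch, so day and any difference in handling between days cannot be told apart. In sgControl, 0 of the 10 genes were called between days 5 and 6 against 8.87% of all genes, and 4 had an unadjusted p under 0.05, against 21.0%. DESeq2 called 2 of them, against 20% of the genes it gave an adjusted p, NFKB1 (-0.38, adjusted p = 0.0229) and REL (-0.30, adjusted p = 0.0180). Between days 6 and 7, 0 were called against 14.6%, with 3 at an unadjusted p under 0.05 against 25.2%. DESeq2 called 1, NFKB1 (0.33, adjusted p = 0.0466), against 23.5%. Between days 5 and 7, 1 was called against 13%. In sgRELA, 2 were called between days 5 and 6 against 6.91%, 1 between days 6 and 7 against 12.2%, and 1 between days 5 and 7 against 12.4%. Counts of 0 to 2 of 10 beside such backgrounds are not a result about these genes as a group.

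NFKB2 fell in sgControl from day 5 to day 7, from 17.8, 16.7 and 13.4 CPM to 9.19, 8.69 and 8.57. The days did not overlap, and the log2 fold change was -0.86 ± 0.21 (SE, adjusted p = 0.00439). The call was lost with either library set alone and without sgControl replicate 2 (-0.81, adjusted p = 0.0535). In sgRELA NFKB2 had 17.3, 17.9 and 17.2 CPM on day 5 and 11.6, 15.8 and 9.86 on day 7, and the log2 fold change was -0.50 ± 0.20 (SE, adjusted p = 0.118).

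REL fell in sgRELA from 113.0, 114.9 and 119.1 CPM on day 5 to 75.3, 81.9 and 85.8 on day 6, and it had 80.7, 84.1 and 80.8 on day 7. The log2 fold changes against day 5 were -0.51 ± 0.10 on day 6 and -0.50 ± 0.10 on day 7 (SE, adjusted p = 0.00149 and 0.00114). In sgControl they were -0.30 ± 0.10 and -0.11 ± 0.10 (SE, adjusted p = 0.0714 and 0.581). Without sgControl replicate 3, REL was called there on day 6 too (-0.48, adjusted p = 0.0167). With library set 2 alone, the 2 calls in sgRELA were lost (-0.34 on day 6, adjusted p = 0.237, and -0.40 on day 7, adjusted p = 0.0936).

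NFKBIB fell in sgRELA from 17.4, 15.04 and 23.0 CPM on day 5 to 11.6, 10.96 and 9.56 on day 6, and was back at 16.4, 19.5 and 17.5 on day 7. The log2 fold changes were -0.78 ± 0.21 from day 5 to 6 and 0.73 ± 0.21 from day 6 to 7 (SE, both adjusted p = 0.0184). Both calls were fragile. Without sgRELA replicate 1, 2 or 3 the first was -0.89, -0.94 and -0.52 (adjusted p = 0.0740, 0.0529 and 0.376), and with library set 1 alone it was -0.41 (adjusted p = 0.787). The second was 0.85, 0.68 and 0.67 without those replicates (adjusted p = 0.0608, 0.146 and 0.138), and 0.61 and 0.86 with library sets 1 and 2 alone (adjusted p = 0.450 and 0.109). In sgControl NFKBIB had 14.4, 18.6 and 15.1 CPM on day 5, 14.5, 9.60 and 9.84 on day 6 and 13.1, 15.8 and 17.8 on day 7. The differences there, -0.51 ± 0.21 and 0.46 ± 0.21 (SE, adjusted p = 0.148 and 0.160), were not called. The second was called without sgControl replicate 1 (0.79, adjusted p = 0.0345) and without the 2 libraries with few detected genes (0.62, adjusted p = 0.0349).

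RELB and NFKBIA had lower values on day 7 than on day 5 in sgRELA, without passing the test. The log2 fold change was -0.997 ± 0.37 for RELB (SE, adjusted p = 0.0758) and -0.33 ± 0.19 for NFKBIA (SE, adjusted p = 0.296). In both genes the day 7 samples lay below those of day 5. In this comparison DESeq2 called RELB (-0.996, adjusted p = 0.0253) and NFKB2 (-0.50, adjusted p = 0.0464), as well as REL, beside 23.7% of all genes. In sgControl the values were -0.64 ± 0.40 for RELB and 0.24 ± 0.19 for NFKBIA (SE, adjusted p = 0.347 and 0.492). RELA fell by 1.21 on the log2 scale in sgRELA over the same days. In sgControl RELA had 33.3 ± 5.27 CPM on day 5 and 24.7 ± 2.14 on day 7 (SD, n = 3). A link between RELA and the day values of RELB and NFKBIA was not tested. NFKBIE, NFKBID, NFKBIZ and BCL3 were not called between any days in either guide.

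**Figure D5:**
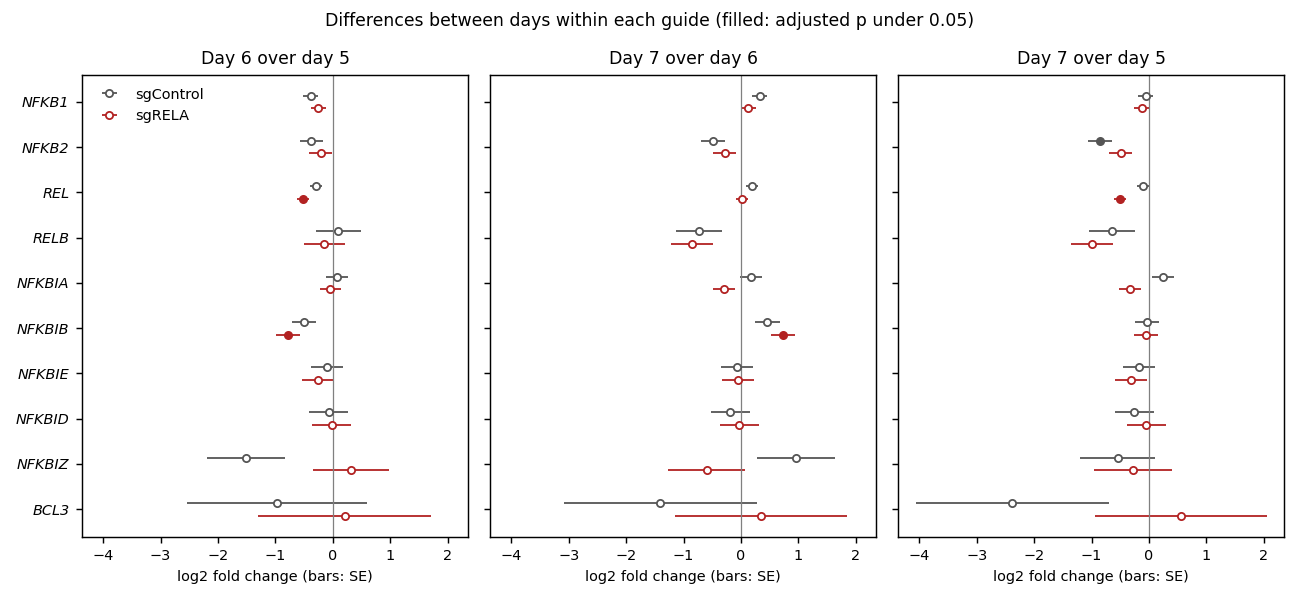
Log2 fold change between days for the 10 genes within each guide, grey for sgControl and red for sgRELA, with SE bars; filled points passed an adjusted p under 0.05. The filled points are NFKB2 in sgControl from day 5 to 7 (-0.86), and REL (-0.51 and -0.50) and NFKBIB (-0.78 and 0.73) in sgRELA.

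Other genes of the pathway were taken from a list of 26, made up of 17 kinases and adaptors, 5 components of the IkB ubiquitin ligase and 4 partners of p105 or IkB beta. In edgeR 0 of the 26 were called for the guide across days, beside the 0.363% of all genes, and 0 on each single day, beside 0.0907% to 0.214%. With shares this small, 0 of 26 is not a result about the list. At an unadjusted p under 0.05 there were 3 across days and 2, 4 and 1 on days 5, 6 and 7, beside 6.74%, 5.96%, 6.07% and 4.68% of all genes. DESeq2 called 0 across days and 0 on day 7 (0.213% of all genes), and 1 each on days 5 (MAP3K8, beside 0.265%) and 6 (PRKCQ, beside 0.702%), both named after their values were seen. Across days the median log2 fold change was 0.04, beside -0.00 over all genes. Above 0 were 17 of 26 values, beside 14319 of 28888 over all genes, and nothing is read from this about the list. The 3 genes with the smallest p across days missed the test. They were TRAF3, an adaptor that restrains the non-canonical pathway (0.17, adjusted p = 0.377), MAP3K8, the kinase held by p105 (0.86, adjusted p = 0.385), and IKBKE, an IKK-related kinase (0.22, adjusted p = 0.510).

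Some genes of this list were called between days. In sgControl 2 of 26 were called from day 5 to 6, both lower, beside 8.87% of all genes, 5 from day 6 to 7 (4 higher, 1 lower) beside 14.6%, and 7 from day 5 to 7 (5 higher, 2 lower) beside 13%. The same steps in sgRELA gave 3 calls (2 up, 1 down) beside 6.91%, 1 call (up) beside 12.2% and 6 calls (4 up, 2 down) beside 12.4%. The genes are named for their own values, and nothing is read from the counts about the list. From day 5 to 7 the smallest p in sgControl belonged to RBX1 (0.87) and SKP1 (0.44), both part of the ubiquitin ligase that acts on phosphorylated IkB, and to TAB3 (-0.56), an adaptor of the kinase TAK1. In sgRELA they belonged to MALT1 (-0.78), the paracaspase of the antigen receptor pathway, SKP1 (0.43) and TAB3 (-0.57). From day 5 to 6 they were TAB2 (-0.38) and TAB3 (-0.39) in sgControl, and PRKCQ (0.59), IKBKE (0.60) and TAB3 (-0.45) in sgRELA. From day 6 to 7 they were RBX1 (0.80), TRAF3 (0.40) and CHUK (0.51), which encodes IKK alpha, in sgControl, and TRAF2 (0.55) in sgRELA. All values here are log2 fold changes that passed the test. T lymphocyte genes moved over the same days, with 6 of 10 called from day 5 to 7 in sgControl (13% of all genes) and 5 of 10 in sgRELA (12.4%), and their part in these results was not tested. Across guides 1 of those 10, CD28 (0.31), was called, beside 0.363% of all genes, and so was CD79A (1.498). Their part in the guide effect on RELB and NFKBIA was not tested.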

How the data were processed

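Total RNA of 18 RNA samples was profiled by RamDA-seq, in 36 libraries made from 100 pg of RNA each, per the labels' protocols. The authors deposited raw counts per Ensembl gene. The submitters' processing notes name cutadapt 1.18, STAR 2.7.9a and GRCh38. The counting tool, annotation, strand setting and treatment of reads with several matches are not given in the sources used here, so overlapping genes are uncertain. No molecular identifiers are mentioned, so depth speaks for counting error only.

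Samples were grouped by their labels, and both libraries of each RNA sample were summed. The 18 sums were fitted with 6 group means for single days, comparisons of days and the interaction. For the comparison across days, days were summed too, by guide and replicate number, into 6 sums. The labels speak of transductions in replicate, and p-values measure the spread between these samples. Tests used edgeR 4.0.16 in R 4.3.3 (TMM, filterByExpr with a minimum count of 10, quasi-likelihood F test, Benjamini-Hochberg adjustment over all genes tested), and SEs were derived from the F statistic. The fit was also run on simulated counts that were independent between the 18 sums. Such counts cannot show whether same-numbered samples depend on each other. TMM factors of the 18 sums were 0.971 to 1.08. Exon lengths and positions came from GENCODE v29 on GRCh38, and promoters from RefSeq. Protein sequences were not analysed here.

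Shares of all genes called by DESeq2 are over the genes to which it gave an adjusted p. Results were recomputed with the DESeq2 1.42.0 test, with DESeq2 size factors in edgeR, with no filter, with each library set alone, with omission of 2 libraries in which few genes were detected, with a replicate block, with omission of each replicate and, across days, a fit of the 18 sums. The 10 genes, the lists and the rules were chosen with earlier results of these data known. Named were the 10 genes, RELA, called pathway genes of the guide comparisons (or else the 3 with the smallest p), and up to 3 called pathway genes with the smallest p per guide and comparison of days. Other named genes are cell type markers or were chosen after their values were seen.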

Additional observations from a re-analysis of the deposited data

Results flagged for a closer look

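Each gene was searched within each group of 6 libraries for a library whose gap to the nearest other took an unusually large part of the group's range (Dixon's critical value for 6). Of 60 searches 5 found one. The critical value is set so that chance gives about 1 in 20 for independent values, but the 6 libraries are 3 pairs from the same RNA and BCL3 is mostly at 0, so the rate by chance is not known here. NFKBIB had 29.5 CPM in library 2 of sgRELA day 5 replicate 3 (392 counts), and the other 5 libraries had 13.8 to 18.4. This RNA sample is the highest of the 3 behind the day 5 level from which NFKBIB fell. NFKBID had 12.6 CPM in library 1 of sgControl day 6 replicate 1 (104 counts), against 3.40 to 5.26 in the others, and that library is 1 of the 2 with the fewest detected genes. NFKBIZ had 5.65 CPM in library 1 of sgRELA day 5 replicate 2 (76 counts), against 0 to 1.82. BCL3 had 1.17 CPM in library 1 of sgControl day 5 replicate 2 (12 counts), against at most 0.339, and this is the library with the fewest detected genes. BCL3 also had 0.702 CPM in library 1 of sgControl day 6 replicate 2 (8 counts), where the other 5 libraries had 0.

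REL stood out between days, since all sgRELA samples lay above sgControl on day 5 and below it on day 7. Its interaction with day had an unadjusted p of 0.0426 and an adjusted p of 1 by edgeR. It therefore failed the correction over all genes, and how many of all genes separate in this way was not counted.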

How the results depend on the processing

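Single values of the 10 genes were recomputed 1399 times over 110 pairs of gene and comparison. Of these, 1348 kept their direction and side of the threshold, or changed sign while uncalled in both settings (80 values), 35 lost a call, 16 gained one and 0 reversed a call. The 12 calls kept their sign in all 158 recomputations. The number of the 10 genes called moved by over 1.5 times as follows. With DESeq2 it was 2 on day 7, and 2, 1 and 3 for sgControl day 6 against 5, sgControl day 7 against 6 and sgRELA day 7 against 5. With library set 1 alone it was 1 on day 5, 0 on day 6, 0 on day 7, 0 for sgControl day 7 against 5, and 1 and 0 for sgRELA day 6 against 5 and day 7 against 6. With library set 2 alone it was 1, 1 and 0 on days 5, 6 and 7, 0 for sgControl day 7 against 5, and 1, 0 and 0 for sgRELA day 6 against 5, day 7 against 6 and day 7 against 5. Without the 2 libraries with few detected genes it was 0 on day 7 (RELB 1.93, adjusted p = 0.0508) and 1 for sgControl day 7 against 6. Leaving out each replicate gave 1 to 2 on days 5 and 6, 0 to 1 on day 7, 0 to 1 for each comparison of days in sgControl, and 1 to 2, 0 to 1 and 1 to 1 for sgRELA day 6 against 5, day 7 against 6 and day 7 against 5. Fewer counts or samples enter the settings that leave libraries or replicates out, and the cause of the other changes was not tested. Except with DESeq2, shares of all genes called are not given for these settings. Their counts are therefore not read as a result about these genes. Across days the number called was 2 or 3 under every setting, the added gene being NFKB1. The shares and ratios per length stayed within 1 SD, which could not have come out otherwise. They were recomputed only with DESeq2 size factors and without each replicate. Size factors cancel in a ratio within a sample, and omission of 1 of 3 values cannot move their mean by 1 SD. Their stability was therefore not tested. BCL3 had no result with either library set alone. It had one in 12 of 14 alternatives across days, in 10 of 13 on day 5 and in 9 of 13 in the other comparisons.

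Same-numbered samples did not deviate together over 15514 genes with a mean count of at least 50. The correlation was -0.01 to 0.07 between guides on a day (9 pairs) and -0.14 to 0.05 between days within a guide (18 pairs), and 0 pairs exceeded 0.1. The labels do not say whether a number marks the same transduction on the 3 days, and these correlations do not settle it. The samples were not treated as paired, although the sums across days add by that number. The replicate block lost the call of RELB on day 7 (1.91, adjusted p = 0.0688), which left 0 called there, and added NFKB1 across days (0.34, adjusted p = 0.0353).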
